A study of Mus musculus with 16 samples.

Results

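Ccl2, Ccl7, Ccl3 and Ccl4 encode secreted chemokines that attract monocytes. They are described here in mouse mast cells treated with an agonist antibody against the receptor TIM-3. The 4 genes are represented by 5 of the 41174 probes of the array, with 2 probes for Ccl7 and 1 for each of the others. Each gene is described by its brightest probe among the 17082 genes tested. The 4 were chosen by their log2 ratios in resting cells at 2 h, where their RNA was higher with anti-TIM-3 than with IgG, so every value that uses those arrays is a description with no test.

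The cells were bone-marrow-derived mast cells, grown from marrow for over 4 weeks in 10% serum with 5 ng/ml of the cytokine IL-3 and 40 ng/ml of stem cell factor, to a purity above 90%, per the labels' protocols. All groups received 15 ug/ml of either a polyclonal goat antibody that activates TIM-3 or a control goat IgG. Activated cells were also given IgE against the hapten DNP (5 ug/ml) for 1 h and the antigen DNP-HSA (100 ng/ml), while resting cells were given neither. RNA was taken at 16 h or 2 h, which gave 4 groups of 4 arrays: activated 16 h, resting 16 h, activated 2 h and resting 2 h. Each of the 16 arrays held both antibodies, with Cy5 on the anti-TIM-3 sample and Cy3 on the IgG sample. No dyes were swapped, so within a group an effect of the antibody and a dye bias of a probe cannot be told apart. Whether the replicates are separate cultures or animals is not stated in the labels. The p-values thus cover the spread among these arrays alone, and that spread may be technical. In such bulk samples fewer producing cells and less RNA per cell cannot be told apart.

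Chemokines are small proteins that bind G protein-coupled receptors on leukocytes and guide them along a gradient. Ccl2 and Ccl7 are ligands of Ccr2, the receptor through which monocytes leave the bone marrow and enter inflamed tissue. Ccl3 is a ligand of Ccr1, and Ccl4 is its close relative in sequence. Mast cells are tissue cells that carry IgE on a high-affinity receptor. When antigen cross-links that IgE they release stored granules within minutes and transcribe cytokine and chemokine genes over the following hours. In the mouse all 4 genes lie on chromosome 11, Ccl2 and Ccl7 next to each other and Ccl3 and Ccl4 in a second cluster, per RefSeq's annotation of GRCm38.p6.

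Of the 4 promoters, that of Ccl3 was matched in RefSeq's sequences for GRCm38.p6. The 250 bases before its start, chr11:83649379-83649628 on the minus strand, are shown because the gene is among those that moved together, and the capitals mark matches to binding motifs.
Ccl3 promoter: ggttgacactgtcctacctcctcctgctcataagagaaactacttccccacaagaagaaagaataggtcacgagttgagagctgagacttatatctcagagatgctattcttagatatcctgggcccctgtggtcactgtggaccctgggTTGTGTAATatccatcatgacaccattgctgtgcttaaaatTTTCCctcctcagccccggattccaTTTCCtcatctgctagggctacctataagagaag
Motifs were searched on both strands. The NFAT core GGAAA matched on the opposite strand at positions -59 to -55 and -34 to -30 relative to the start, and 55.6% of 32817 promoter windows of this length hold a match. The C/EBP motif TTNNGNAAT matched at -100 to -92, and 10.2% of windows hold a match. The AP-1 motif TGANTCA (6.75% of windows), TATAAA (12.4%), the cAMP response element TGACGTCA (1.55%) and the kappa B consensus (7.25%) had no match in these letters. The motif matches do not overlap each other.

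All 5 probes were well above background in both channels on all 16 arrays, and no spot was saturated. The share of spots well above background was 54.8% to 67.7% in Cy5, and in Cy3 it was 53.7% to 62.1%. With 4 arrays a group, precision is set by that number. Of 12 mast cell marker genes, 12 were above background in every group. Of 12 macrophage and monocyte markers, 10 were above background in every group, and C1qa was in none. Of 8 neutrophil markers, 2 or 3 were above background in each group, S100a9 and Mpo among them, while Elane, Camp, Ltf and Ngp were in none. Over all genes, the log2 ratios of 3 of the 4 resting 2 h arrays correlated better, on average, with another group than with their own. Replicate 3 did so with resting 16 h arrays (mean r 0.56, against 0.26 with its own group), and replicates 2 (0.49 against 0.36) and 4 (0.575 against 0.48) with activated 2 h arrays. Replicate 3 correlated with the 4 resting 16 h arrays at 0.52 to 0.64. Resting 16 h replicates 1 and 3 correlated best with their own group (mean r 0.58 and 0.56) and with each other at 0.79. Ratios in resting cells are also given without a set of 3 arrays, resting 2 h replicate 3 and resting 16 h replicates 1 and 3. That set was chosen after seeing the data, and without it the resting 16 h group holds replicates 2 and 4 alone.

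At 2 h in activated cells, RNA of all 4 chemokines was higher with anti-TIM-3 than with IgG on every array, by 4.29-fold for Ccl7, 4.94-fold for Ccl2, 6.41-fold for Ccl3 and 10.4-fold for Ccl4. All 4 of the 4 members were called higher (limma, Benjamini-Hochberg adjusted p under 0.05), beside 17.1% of all genes called higher and 16.3% called lower in this comparison. Among the 17082 genes the mean ratios of Ccl4, Ccl3, Ccl2 and Ccl7 ranked 1, 5, 9 and 15. A total of 66 genes rose at least 2-fold. With each array centred on its median in place of loess, 10292 genes were higher and 781 lower, against 2918 higher and 2778 lower with loess.

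Ccl4, a chemokine closely related to Ccl3, had log2 ratios of anti-TIM-3 over IgG of 3.13, 3.44, 3.35 and 3.58 on the 4 activated arrays at 2 h. Its log2 levels there were 16.93, 17.08, 17.13 and 17.14 with anti-TIM-3 and 13.80, 13.65, 13.79 and 13.57 with IgG. The 2 antibodies' levels lay over 3 log2 units apart on each array and did not overlap. The mean log2 ratio was 3.37 ± 0.19 (SD, n = 4), with an adjusted p of 2.01e-12 in limma. Resting cells at 2 h had ratios of 0.86, 1.42, 0.60 and 1.13, with a mean of 1.00 ± 0.35 (SD, n = 4). The lowest of these was on replicate 3. Without that array the resting 2 h means were 1.13 for Ccl4, 1.33 for Ccl3, 1.18 for Ccl2 and 0.80 for Ccl7.

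Ccl3, a ligand of Ccr1, had log2 ratios of 2.46, 2.65, 2.67 and 2.94 in activated cells at 2 h. Its log2 levels were 16.35, 16.37, 16.28 and 16.36 with anti-TIM-3 and 13.89, 13.72, 13.61 and 13.42 with IgG. The anti-TIM-3 levels were closer to each other than the IgG levels, and the antibodies did not overlap. The mean log2 ratio was 2.68 ± 0.20 (SD, n = 4; adjusted p = 1.46e-14 in limma). The resting 2 h ratios were 1.22, 1.44, 1.15 and 1.32, with a mean of 1.29 ± 0.13 (SD, n = 4).

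Ccl2, the main Ccr2 ligand of monocyte traffic, had log2 ratios of 2.19, 2.33, 2.20 and 2.50 in activated cells at 2 h. Its log2 levels were 17.30, 17.32, 17.30 and 17.37 with anti-TIM-3 and 15.11, 14.99, 15.10 and 14.87 with IgG. The groups did not overlap, and the mean log2 ratio was 2.30 ± 0.14 (SD, n = 4; adjusted p = 2.39e-15 in limma). Ratios in resting cells at 2 h were 1.14, 1.28, 1.00 and 1.11, with a mean of 1.13 ± 0.12 (SD, n = 4). Ccl2 is spotted 10 times on each array, and the SD between its spots within an array was 0.028 to 0.097 after leaving out 6 outlier spots over all arrays. The raw Cy5 signal of these spots reached 308800 units in the activated 2 h group, so Ccl2 is a bright probe. Its activated 2 h log2 ratio was 2.00 in the authors' deposited log ratios and 3.18 with median centring.

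Ccl7, the other Ccr2 ligand, had log2 ratios of 2.26, 1.86, 1.81 and 2.47 in activated cells at 2 h. Its log2 levels were 15.60, 15.38, 15.38 and 15.72 with anti-TIM-3 and 13.33, 13.51, 13.57 and 13.25 with IgG. Replicates 1 and 4 had the higher anti-TIM-3 levels and the lower IgG levels. The mean log2 ratio was 2.10 ± 0.32 (SD, n = 4; adjusted p = 1.82e-11 in limma). In resting cells at 2 h the ratios were 0.95, 0.63, 1.21 and 0.83, with a mean of 0.90 ± 0.24 (SD, n = 4). Here replicate 3 was the highest array of the group, where Ccl2, Ccl3 and Ccl4 had their lowest. The second Ccl7 probe gave 2.09 ± 0.26 in activated and 0.94 ± 0.23 in resting cells at 2 h (SD, n = 4), within 0.05 of the first.

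**Figure D1:**
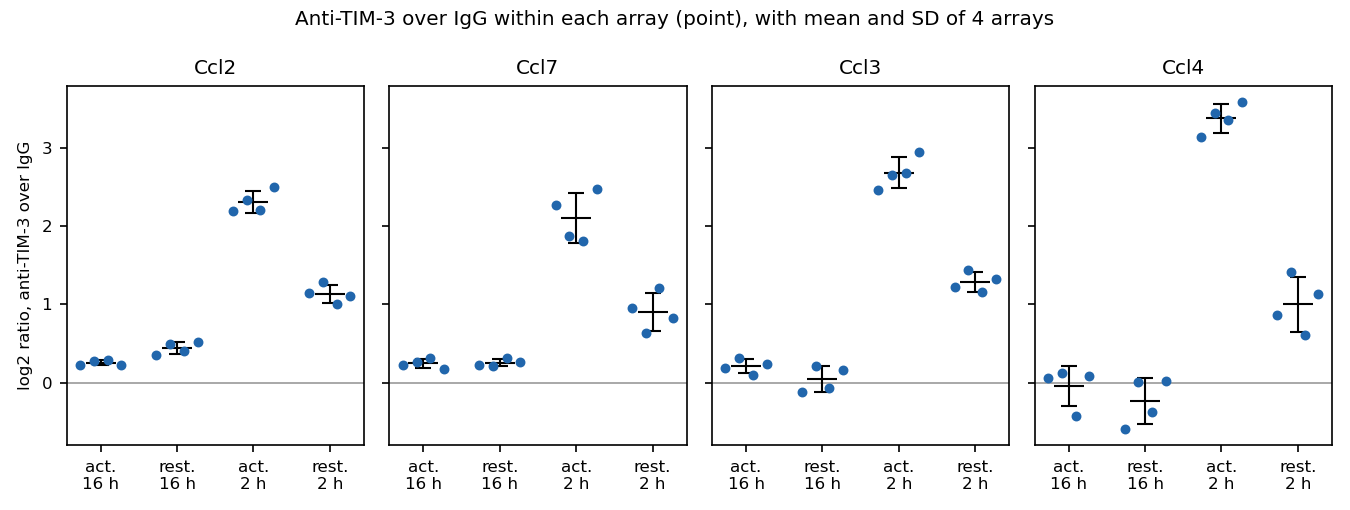
Log2 ratio of anti-TIM-3 over IgG on each of the 4 arrays of a group (points) for Ccl2, Ccl7, Ccl3 and Ccl4, with the mean (horizontal tick) and SD (bars). Points of the activated 2 h group lie above those of the other 3 groups for every gene, and the 16 h groups lie between -0.59 and 0.52.

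The activated 2 h arrays lay on slides 2 and 3, and the mean log2 ratios within those slides were 2.26 and 2.35 for Ccl2, 2.06 and 2.14 for Ccl7, 2.55 and 2.81 for Ccl3, and 3.28 and 3.46 for Ccl4. The difference in ratio between activated and resting cells at 2 h uses the resting arrays and carries no test. It was 1.17 for Ccl2, 1.20 for Ccl7, 1.39 for Ccl3 and 2.37 for Ccl4 on the log2 scale. The Ccl4 value corresponds to a 5.18-fold larger ratio in activated cells. Within slides 2 and 3 it was 2.43 and 2.86 for Ccl4 and between 0.93 and 1.65 for the other 3 genes. With anti-TIM-3 in activated cells at 2 h, 17.1% of all genes were called higher and 16.3% lower. Of 10 macrophage and monocyte markers measured, 0 were called higher and 1 lower there. Their summed normalised intensity was 25878 to 65245 with anti-TIM-3 and 24579 to 59887 with IgG.

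At 16 h the ratios were small for all 4 genes, and only part of them passed the test. In activated cells 3 of the 4 members were called higher with anti-TIM-3, beside 16.9% of all genes called higher, and 0 lower, beside 13.2%. In resting cells 1 of the 4, Ccl2, was called higher, beside 11.7% of all genes, and 0 were called lower, beside 9.95%. At an unadjusted p under 0.05, limma gave 2 members in resting cells, Ccl2 and Ccl7. With the authors' deposited log ratios 0 of these 4 calls stood, with adjusted p of 0.893 for Ccl2, 0.0646 for Ccl7 and 0.0521 for Ccl3 in activated cells and 0.0503 for Ccl2 in resting cells. With median centring the median of all genes was itself at 0.39 in activated and 0.30 in resting cells at 16 h, and the members' ratios were then 0.57 to 1.20 and 0.22 to 1.17.

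Ccl2 had log2 ratios of 0.23, 0.27, 0.29 and 0.23 in activated cells at 16 h (mean 0.25 ± 0.03, SD, n = 4; adjusted p = 0.000894 in limma). In resting cells at 16 h they were 0.35, 0.49, 0.40 and 0.52 (mean 0.44 ± 0.08, SD, n = 4; adjusted p = 2.06e-05). All 8 ratios were above 0, and those of resting cells all lay above those of activated cells. Without the set of 3 arrays the resting mean was 0.51 (adjusted p = 0.000358). In the authors' deposited log ratios the means were 0.01 in activated and 0.17 in resting cells. Relative to the median of all genes, Ccl2 was at 0.81 in activated and 0.88 in resting cells with median centring, and at 0.02 and 0.17 in the deposited log ratios.

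Ccl7 had ratios of 0.23, 0.26, 0.31 and 0.18 in activated cells at 16 h (mean 0.24 ± 0.06, SD, n = 4; adjusted p = 0.0496 in limma). In resting cells they were 0.22, 0.21, 0.31 and 0.27 (mean 0.25 ± 0.05, SD, n = 4; adjusted p = 0.0526). All 8 ratios were positive and the 2 means lay 0.01 apart, on either side of the threshold. The call in activated cells held in 6 of 14 alternatives and was lost without each of the 4 arrays in turn (adjusted p up to 0.152). In resting cells the ratio passed with replicate number as a block (adjusted p = 0.0479), and without the set of 3 arrays it was 0.24 (adjusted p = 0.340). Its second probe gave 0.29 ± 0.06 in activated and 0.31 ± 0.07 in resting cells (SD, n = 4).

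Ccl3 had ratios of 0.18, 0.31, 0.10 and 0.23 in activated cells at 16 h (mean 0.21 ± 0.09, SD, n = 4; adjusted p = 0.0308 in limma). In resting cells they were -0.12, 0.21, -0.07 and 0.16 (mean 0.04 ± 0.17, SD, n = 4; adjusted p = 0.700). The call in activated cells held in 9 of 14 alternatives. It was lost with the deposited log ratios (adjusted p = 0.0521), with slide as a fixed block (0.106) and without replicate 1 (0.0782), 2 (0.134) or 4 (0.0928). Resting replicates 1 and 3 lay below 0 and replicates 2 and 4 above it. Without the set of 3 arrays the resting mean was 0.19 (adjusted p = 0.290).

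Ccl4 had ratios of 0.06, 0.12, -0.43 and 0.08 in activated cells at 16 h (mean -0.04 ± 0.26, SD, n = 4; adjusted p = 0.833 in limma). In resting cells they were -0.59, 0.0017, -0.38 and 0.02 (mean -0.24 ± 0.30, SD, n = 4; adjusted p = 0.180). The 3 values clearly below 0 were on activated replicate 3 and resting replicates 1 and 3. With replicate number as a block the resting ratio passed (-0.24, adjusted p = 0.0375). The set of 3 arrays includes resting replicates 1 and 3. Without it, on resting replicates 2 and 4 alone, the resting mean was 0.01 (adjusted p = 0.980). Without activated replicate 3 the activated mean was 0.09 (adjusted p = 0.690). The 95% confidence intervals were -0.30 to 0.22 in activated and -0.49 to 0.02 in resting cells. Both lie below the lowest activated 2 h ratio, 3.13.

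In activated cells at 16 h the macrophage and monocyte markers moved as well: 9 of 10 measured were lower with anti-TIM-3 and 0 higher. Of all genes there, 13.2% were called lower and 16.9% higher. The summed intensity of the list was 15877 to 41663 with anti-TIM-3 and 22323 to 67890 with IgG. Of the 11 markers on the array 10 were above background in this group, and C1qa was not. At 16 h in resting cells 1 of the 10 was higher and 1 lower, beside 11.7% of all genes called higher and 9.95% lower. Of 12 mast cell markers, 8 were higher and 2 lower in activated cells at 16 h, with sums of 441212 to 716754 with anti-TIM-3 and 313987 to 495183 with IgG and a list median of 0.14. In resting cells 7 were higher and 1 lower, with sums of 567698 to 766102 with anti-TIM-3 and 384341 to 464504 with IgG and a list median of 0.30. With no dyes swapped, a dye bias of a marker's probe and an effect of the antibody cannot be told apart in these counts. The part of these markers in the chemokine values at 16 h was not tested.

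The difference in ratio between activated and resting cells at 16 h passed the test for 0 of the 4 members in limma, beside 8.58% of all genes called in either direction. At an unadjusted p under 0.05 it was 1, Ccl2. It was -0.19 for Ccl2 (95% confidence interval -0.34 to -0.04; adjusted p = 0.112), -0.01 for Ccl7 (-0.28 to 0.26), 0.16 for Ccl3 (-0.04 to 0.37) and 0.19 for Ccl4 (-0.17 to 0.56). In the same comparison 0 of 10 macrophage and monocyte markers were higher and 6 lower. Their part was not tested. Slides 1 and 4 held both groups, and within them the differences were -0.23 and -0.10 for Ccl2, -0.11 and 0.02 for Ccl7, 0.19 and 0.37 for Ccl3, and 0.26 and 0.68 for Ccl4.

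In activated cells the ratio was smaller at 16 h than at 2 h for all 4 members, and this difference passed the test for 4 of 4, beside 8.05% of all genes called lower. On the log2 scale it was -2.05 for Ccl2 (SE 0.070; adjusted p = 1.96e-12), -1.86 for Ccl7 (SE 0.13; 2.38e-08), -2.47 for Ccl3 (SE 0.097; 1.20e-11) and -3.42 for Ccl4 (SE 0.17; 4.16e-10), all from limma. Of 10 macrophage and monocyte markers 0 were higher and 9 lower in this difference, and their part was not tested. Any probe-specific dye bias common to both times drops out of this difference. Only slide 3 held both groups, and within it the values were -2.06 for Ccl2, -1.83 for Ccl7, -2.71 for Ccl3 and -3.89 for Ccl4. In resting cells, with no test, the difference between 16 h and 2 h was -0.69 for Ccl2, -0.65 for Ccl7, -1.24 for Ccl3 and -1.24 for Ccl4.

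The single-channel levels give the difference between activated and resting cells with each antibody. Levels were compared across arrays within a channel, so values with anti-TIM-3 come from Cy5 and values with IgG from Cy3. At 2 h the resting arrays allow no test. In IgG-treated cells the Cy3 levels of Ccl7, Ccl4 and Ccl3 were higher when activated than when resting, and that of Ccl2 was lower. With anti-TIM-3 all 4 levels were higher in activated than in resting cells. Both channels were read from the same spots, and the raw Cy5 median of Ccl2 was 267500 in activated and 145500 in resting cells at 2 h. Whether so bright a Cy5 signal affected the Cy3 level of Ccl2 was not tested.

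Ccl2 log2 levels in IgG-treated cells at 2 h were 15.11, 14.99, 15.10 and 14.87 when activated and 15.39, 15.29, 15.47 and 15.41 when resting. The highest activated array lay below the lowest resting array, and the mean difference was -0.37, which is 1.30-fold lower in activated cells. With anti-TIM-3 the levels were 17.30, 17.32, 17.30 and 17.37 in activated cells and 16.53, 16.57, 16.47 and 16.53 in resting cells, a difference of 0.80, with no overlap. Over all settings that were run, the difference in IgG-treated cells lay between -0.41 and -0.32, and within slides 2 and 3 it was -0.34 and -0.49.

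Ccl7 log2 levels in resting cells at 2 h were 12.00, 11.49, 11.98 and 11.80 with anti-TIM-3 and 11.05, 10.86, 10.77 and 10.97 with IgG. Set against these, activated cells were higher by 3.70 with anti-TIM-3 (13.0-fold) and by 2.50 with IgG (5.67-fold). Ccl4 in resting cells at 2 h was at 12.97, 12.53, 11.98 and 12.48 with anti-TIM-3 and at 12.12, 11.11, 11.38 and 11.35 with IgG. Activated cells were higher by 4.58 with anti-TIM-3 (23.9-fold) and by 2.21 with IgG (4.62-fold). Ccl3 in resting cells at 2 h was at 14.20, 13.98, 13.87 and 14.16 with anti-TIM-3 and at 12.97, 12.54, 12.72 and 12.84 with IgG. Its differences were 2.29 with anti-TIM-3 (4.88-fold) and 0.89 with IgG (1.86-fold). In IgG-treated cells Ccl7, Ccl4 and Ccl3 did not overlap between activated and resting arrays.

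**Figure D2:**
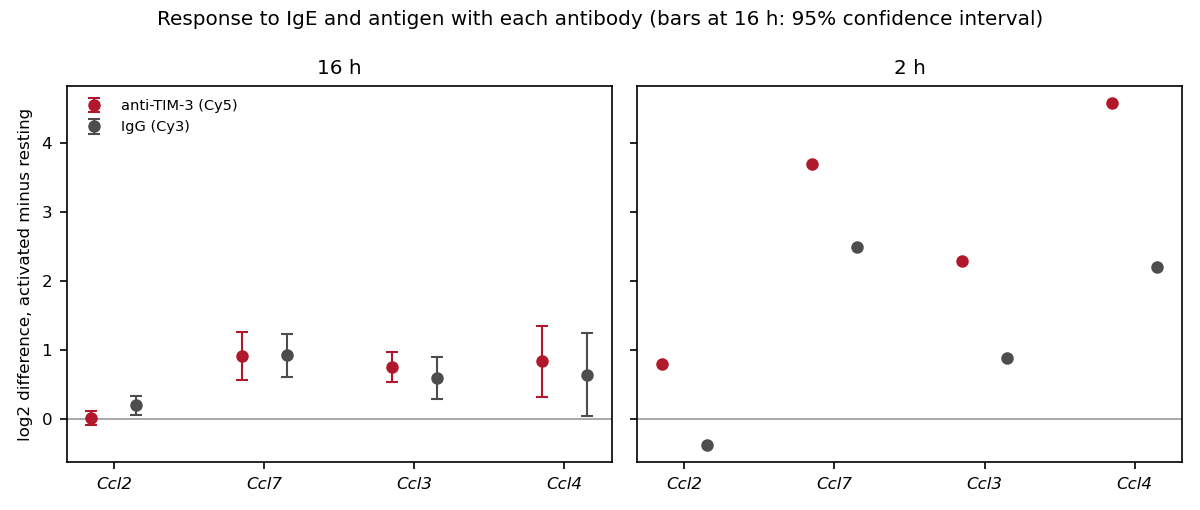
Difference in log2 level between activated and resting cells (vertical axis) for each gene, with anti-TIM-3 (red, Cy5) and with IgG (grey, Cy3), at 16 h (left, with 95% confidence intervals) and 2 h (right, estimates alone). At 2 h the anti-TIM-3 values lie above the IgG values for every gene and the Ccl2 value with IgG lies below 0. At 16 h all values lie between 0.02 and 0.93.

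At 16 h the same comparison could be tested. With anti-TIM-3, 3 of the 4 members were called higher in activated cells, beside 9.47% of all genes, and with IgG also 3 of 4, beside 5.3% of all genes. The macrophage and monocyte markers were counted in the same comparison. With anti-TIM-3 0 of 10 were higher and 3 lower, beside 1672 of 17081 genes called lower (list median -0.87, against 0.0049 for all genes). With IgG 1 was higher and 1 lower, beside 1199 of 17081 genes called lower (median -0.41, against 0.0011). The part of the markers in these chemokine levels was not tested. Same-numbered arrays of these groups deviated together in both channels, so values with replicate number as a block are given where they change a call. Ccl7 was higher by 0.92 with anti-TIM-3 (1.89-fold; adjusted p = 0.000860 in limma) and by 0.93 with IgG (1.90-fold; adjusted p = 0.000560). Its log2 levels with anti-TIM-3 were 11.23, 10.62, 10.96 and 10.84 in activated cells and 10.43, 9.64, 9.96 and 9.93 in resting cells. With IgG they were 11.00, 10.36, 10.66 and 10.66 in activated cells and 10.21, 9.43, 9.65 and 9.66 in resting cells. Activated and resting arrays did not overlap with either antibody.

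Ccl3 was higher in activated cells at 16 h by 0.76 with anti-TIM-3 (1.70-fold; adjusted p = 7.99e-05 in limma) and by 0.60 with IgG (1.52-fold; adjusted p = 0.0102). Its log2 levels with anti-TIM-3 were 13.44, 12.94, 13.12 and 13.22 in activated cells and 12.51, 12.26, 12.28 and 12.60 in resting cells, with no overlap. With IgG they were 13.26, 12.63, 13.02 and 12.99 in activated cells and 12.64, 12.05, 12.36 and 12.43 in resting cells, where activated replicate 2 overlapped the resting range.

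Ccl4 differed by 0.84 with anti-TIM-3 (1.79-fold; adjusted p = 0.0232 in limma), and in IgG-treated cells the difference was 0.65 (adjusted p = 0.161). Its log2 levels with anti-TIM-3 were 12.55, 11.30, 11.58 and 11.85 in activated cells and 11.42, 10.71, 10.65 and 11.13 in resting cells. With IgG they were 12.49, 11.18, 12.01 and 11.77 in activated cells and 12.01, 10.71, 11.03 and 11.10 in resting cells. The ranges overlapped with both antibodies. The call with anti-TIM-3 was lost without activated replicate 1 (0.60; adjusted p = 0.0713), without activated replicate 4 (0.83; 0.0503) and without resting replicates 2 (0.76; 0.0648) or 3 (0.73; 0.0799). In IgG-treated cells the difference passed with replicate number as a block (0.65; adjusted p = 0.00789) and without resting replicate 1 (0.92; adjusted p = 0.0307). Without the set of 3 arrays it was 0.90 with anti-TIM-3 (adjusted p = 0.0482) and 0.96 with IgG (0.0861).

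Ccl2 differed by 0.02 between activated and resting cells at 16 h with anti-TIM-3 (adjusted p = 0.816 in limma; 95% confidence interval -0.08 to 0.13) and by 0.21 with IgG (adjusted p = 0.0484). Its log2 levels with anti-TIM-3 were 15.89, 15.75, 15.94 and 15.90 in activated cells and 15.83, 15.78, 15.85 and 15.94 in resting cells. With IgG they were 15.67, 15.48, 15.65 and 15.67 in activated cells and 15.48, 15.29, 15.45 and 15.42 in resting cells. With IgG the lowest activated array, replicate 2, lay just above the highest resting array. That call ended in 6 of the 8 settings that leave out 1 array of these groups, with adjusted p up to 0.152, and without the set of 3 arrays (0.26; 0.0717). Without that set Ccl7 and Ccl3 stayed past the threshold with both antibodies. Within slides 1 and 4 the differences with IgG were 0.24 and 0.10 for Ccl2, 1.01 and 0.47 for Ccl7, 0.59 and 0.31 for Ccl3, and 0.71 and -0.18 for Ccl4. With anti-TIM-3 they were 0.01 and -0.0048 for Ccl2, 0.89 and 0.49 for Ccl7, 0.78 and 0.68 for Ccl3, and 0.97 and 0.50 for Ccl4.

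**Figure D3:**
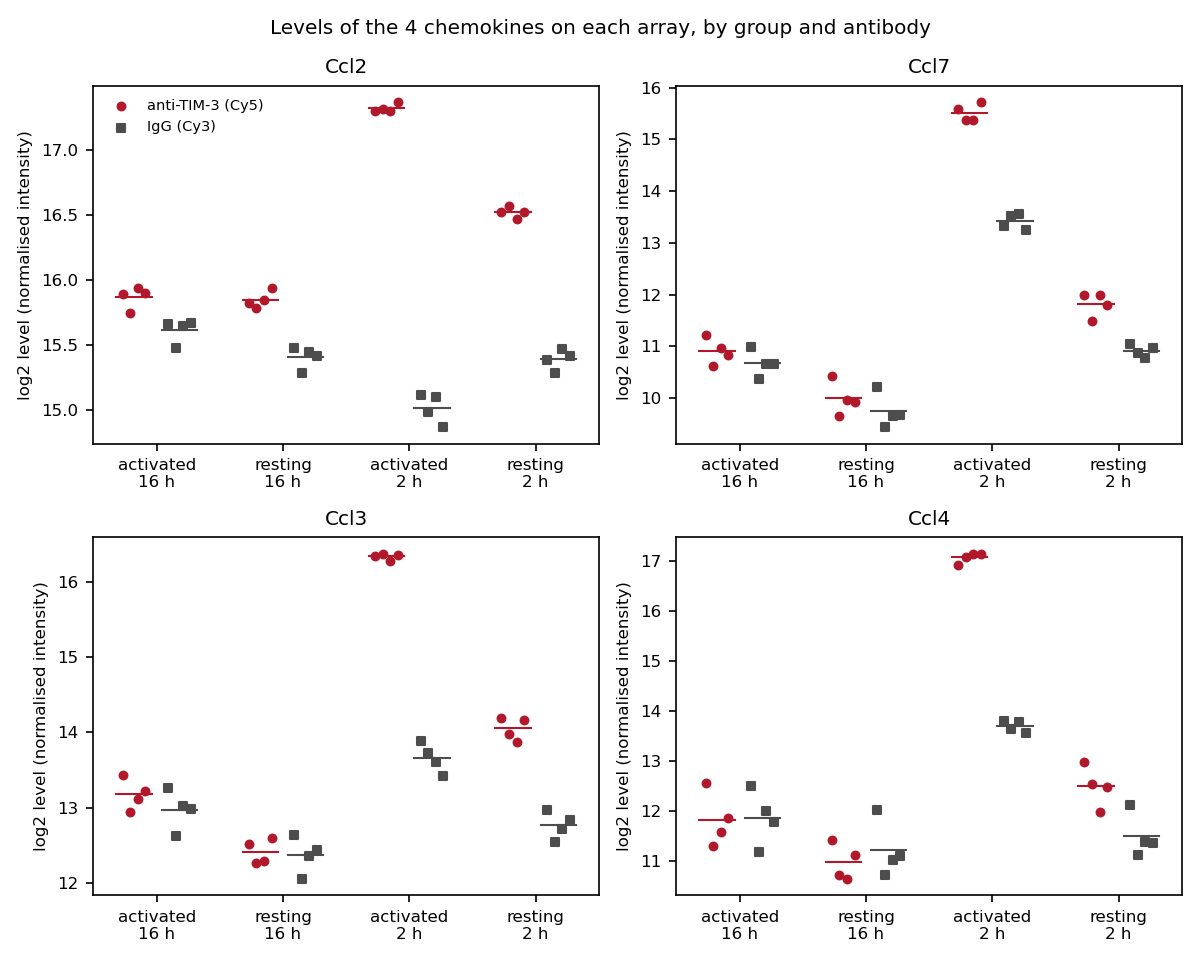
Log2 level (normalised intensity) of each gene on every array, with anti-TIM-3 (red circles, Cy5) and IgG (grey squares, Cy3), by group, with the mean of 4 arrays as a line. Among arrays with anti-TIM-3 those of activated cells at 2 h are the highest in each panel, and among arrays with IgG they are the lowest for Ccl2 and the highest for the other 3 genes.

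Between 16 h and 2 h in activated cells, levels with anti-TIM-3 were lower at 16 h for 4 of 4 members, beside 26.1% of all genes called lower. The differences were -1.45 for Ccl2 (2.73-fold lower), -4.61 for Ccl7 (24.4-fold), -3.16 for Ccl3 (8.95-fold) and -5.25 for Ccl4 (38.1-fold), with adjusted p of at most 1.46e-11 in limma. With IgG, 3 of 4 were called lower at 16 h, beside 26.2% of all genes, and 1 higher, beside 33.9%. Ccl7 was lower by 6.72-fold (adjusted p = 9.37e-11), Ccl4 by 3.57-fold (2.64e-05) and Ccl3 by 1.61-fold (0.000491). Ccl2 was higher at 16 h, at 15.67, 15.48, 15.65 and 15.67, against 15.11, 14.99, 15.10 and 14.87 at 2 h. Its groups did not overlap and differed by 0.60 (1.51-fold; adjusted p = 5.62e-07 in limma). Whether the brighter Cy5 signal of Ccl2 at 2 h affected this Cy3 difference was not tested. Slide 3 held both groups, and within it the IgG differences were 0.66 for Ccl2, -2.75 for Ccl7, -0.50 for Ccl3 and -1.67 for Ccl4.

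In resting cells, with no test, levels at 16 h with anti-TIM-3 were lower than at 2 h by 1.60-fold for Ccl2, 3.54-fold for Ccl7, 3.11-fold for Ccl3 and 2.86-fold for Ccl4. With IgG, Ccl2 differed by 0.02, with overlapping arrays, and its sign turned in 3 of the settings that leave out arrays. Ccl7 was 2.26-fold lower at 16 h with IgG and did not overlap. Ccl3 and Ccl4 overlapped between the times with IgG, with differences of -0.40 and -0.28.

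Within each channel the 4 groups fell into an order for every gene. With anti-TIM-3 (Cy5) the order was the same for all 4 genes: activated 2 h, resting 2 h, activated 16 h, resting 16 h. The span between the highest and lowest group mean was 2.77-fold for Ccl2, 46.1-fold for Ccl7, 15.2-fold for Ccl3 and 68.3-fold for Ccl4. Neighbours in that order did not overlap for Ccl7 and Ccl3. For Ccl2 activated (15.87) and resting cells (15.85) at 16 h overlapped, and for Ccl4 both resting 2 h (12.49) and activated 16 h (11.82), and activated and resting cells (10.98) at 16 h, overlapped. With IgG (Cy3) activated cells at 2 h were the highest group for Ccl7, Ccl3 and Ccl4 and the lowest for Ccl2. The spans with IgG were 1.51-fold for Ccl2, 12.8-fold for Ccl7, 2.44-fold for Ccl3 and 5.60-fold for Ccl4. In the IgG order of Ccl2, resting cells at 16 h (15.41) and at 2 h (15.39) overlapped. For Ccl7 activated cells at 16 h (10.67) and resting cells at 2 h (10.91) overlapped. For Ccl3 and Ccl4 every pair of neighbours below the activated 2 h group overlapped.

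Over the 32 channel levels, which share arrays and probes' dye effects, Ccl7 and Ccl4 followed each other most closely (Pearson r = 0.97), with r = 0.96 for Ccl3 and Ccl4 and 0.94 for Ccl7 and Ccl3. Ccl2 correlated at 0.81 with Ccl3, 0.66 with Ccl4 and 0.57 with Ccl7. Across the same 32 levels, the genes whose levels were most like the mean of the 4 standardised chemokine levels, among 16754 compared, were Il6 (r = 0.97), Clstn3 (0.95), Ndel1 (0.94), Junb (0.94), Ifng (0.94), Bcl2l1 (0.93), Sgk1 (0.93), Hipk1 (0.93), Maff (0.93) and Il11 (0.93). Il6, which encodes the cytokine interleukin 6, had mean log2 ratios of 2.70 in activated and 0.46 in resting cells at 2 h, and 0.44 in activated and -0.02 in resting cells at 16 h. Il11, another cytokine gene, was at 1.95 in activated and 0.09 in resting cells at 2 h. These correlations describe the arrays and carry no test.

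Other CC chemokines were compared as a list of 17 genes, of which 13 were measured. With anti-TIM-3 in activated cells at 2 h, 5 rose, 1 fell and 7 did not pass, beside 17.1% of all genes called higher and 16.3% lower. The list's median log2 ratio was 0.03 against 0.0012 for all genes. The 5 were Ccl1 (1.25 ± 0.36, adjusted p = 1.32e-07), Ccl9 (0.68 ± 0.08), Ccl24 (0.45 ± 0.10), Ccl17 (0.43 ± 0.09) and Ccl12 (0.41 ± 0.10; SD, n = 4 each). Ccl12 was well above background on 4 arrays with anti-TIM-3 but on 1 of 4 with IgG. Ccl1 attracts cells that carry Ccr8, Ccl17 attracts cells that carry Ccr4, and Ccl24 is an eosinophil attractant that acts on Ccr3. Ccl6, which fell, was at -0.18 ± 0.12 (adjusted p = 0.0260).

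At 16 h in activated cells 5 of the 13 rose and 1 fell, beside 16.9% of all genes called higher and 13.2% lower. The list median was -0.02 against 0.0092 for all genes. Ccl17 was at 1.81 ± 0.28 (adjusted p = 1.24e-10 in limma), Ccl1 at 1.64 ± 0.19 (7.55e-09), Ccl24 at 1.30 ± 0.51 (8.73e-07) and Ccl9 at 0.29 ± 0.10 (0.000103; SD, n = 4 each). Ccl12 was at -0.11 ± 0.18 (adjusted p = 0.129) and Ccl6 fell by 0.34. For resting cells at 16 h the counts were 3 and 1, beside 11.7% of all genes called higher and 9.95% lower. Ccl1 was at 0.11 there and Ccl9 at 0.22 (adjusted p = 0.00331 in limma). With no test, in resting cells at 2 h, Ccl1 was at 0.71 ± 0.25, Ccl9 at 0.19 ± 0.07 and Ccl24, Ccl17 and Ccl12 between -0.02 and 0.10.

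**Figure D4:**
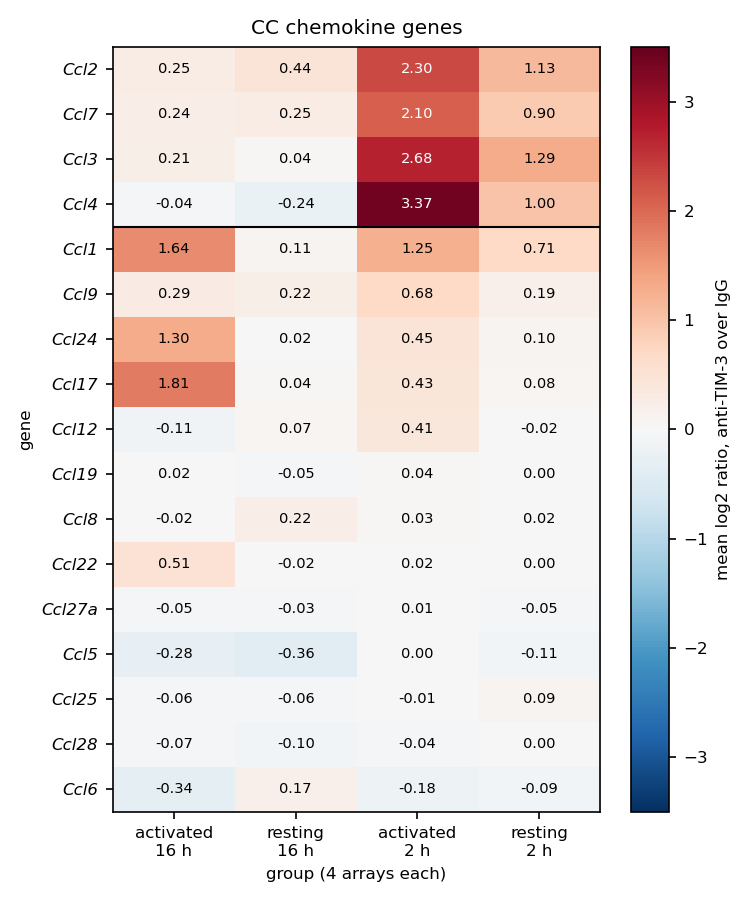
Mean log2 ratio of anti-TIM-3 over IgG (colour and number) for the 4 chemokines, above the line, and the 13 other CC chemokine genes measured, below it, in the 4 groups of 4 arrays. The values of Ccl2, Ccl7, Ccl3 and Ccl4 are largest in activated cells at 2 h, from 2.10 to 3.37, and those of Ccl17, Ccl1 and Ccl24 in activated cells at 16 h, from 1.30 to 1.81.

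Neighbouring genes were those that start within 200 kb of a member. Of 13 such genes, 11 are on the array and 10 were measured. Of these 10, 4 rose and 2 fell in activated cells at 2 h, beside 17.1% higher and 16.3% lower of all genes. Beside Ccl2 and Ccl7, Ccl1 and Ccl12 rose, while Ccl8, another ligand of this family, was at 0.03 (adjusted p = 0.749). Beside Ccl3 and Ccl4, Ccl9 rose, Wfdc18 was at 0.11 (adjusted p = 0.0347), Ccl6 fell, and Heatr6 was at -0.19 (adjusted p = 0.00511). Ccl5, a chemokine that attracts T cells and monocytes, was at 0.0031 (adjusted p = 0.985), and Taf15 and Wfdc21 did not pass either (0.17 and -0.05).

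Among 16 genes of CC chemokine receptors and scavenging receptors, 10 were measured. At 2 h in activated cells 4 rose and 2 fell, beside 17.1% of all genes called higher and 16.3% lower. The list median was 0.07 against 0.0012. Those that rose were Ackr2, a receptor that removes CC chemokines without signalling to G proteins (0.30, adjusted p = 4.55e-05 in limma), Ccr3 (0.26), Ccr1, a receptor of Ccl3 (0.21), and Ccrl2 (0.20). Ccr7 was at -0.19 (adjusted p = 0.0275) and Ccr2, the receptor of Ccl2 and Ccl7, at -0.11 (adjusted p = 0.0466). At 16 h in activated cells 1 rose and 3 fell, with Ccr2 at -0.24 and Ccr3 at 0.18, beside 16.9% of all genes higher and 13.2% lower. In resting cells at 16 h 0 of 10 passed in either direction, with Ccr2 at -0.02, beside 11.7% higher and 9.95% lower.

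Transcription factors known to act on these promoters, with their inhibitors, were all measured (23 of 23). With anti-TIM-3 12 rose and 2 fell in activated cells at 2 h, beside 17.1% of all genes called higher and 16.3% lower. The list median was 0.28 against 0.0012. The largest were Nfkbiz (1.28 ± 0.19), Nfkbid (1.20 ± 0.20), Fosb (1.14 ± 0.19), Rel (0.98 ± 0.15) and Fosl2 (0.92 ± 0.13; SD, n = 4 each), with adjusted p of at most 8.19e-08 in limma. Nfkbiz and Nfkbid encode nuclear regulators of NF-kappaB, Rel is an NF-kappaB subunit, and Fosb and Fosl2 are subunits of AP-1. At 16 h 2 of the 23 rose and 6 fell in activated cells, beside 16.9% of all genes called higher and 13.2% lower. The resting 16 h group had 4 of the list called higher and 5 lower, beside 11.7% and 9.95% of all genes. Nfkbiz was at -0.05 and Fosl2 at -0.27 in activated cells at 16 h.

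Of 14 regulators of the decay of cytokine and chemokine mRNAs, all measured, 4 rose and 1 fell in activated cells at 2 h. The shares of all genes were 17.1% higher and 16.3% lower, and the list median was 0.0077. Zfp36l1, an RNA-binding protein that promotes decay of AU-rich mRNAs, was at 0.49 ± 0.19 (adjusted p = 0.000497 in limma). Zc3h12a, an endonuclease that cuts mRNAs of cytokines, was at 0.42 ± 0.12 (1.62e-05). Zfp36 was at 0.18, Rc3h1 at 0.17 and Zfp36l2, which fell, at -0.19. At 16 h 1 rose and 4 fell in activated cells, where 16.9% of all genes were called higher and 13.2% lower. The resting 16 h group had 1 of the 14 called higher and 6 lower, where the shares were 11.7% and 9.95%.

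Of 11 genes for heparan sulfate and serglycin, whose glycosaminoglycan chains bind chemokines, 3 rose and 3 fell in activated cells at 2 h. The shares of all genes were 17.1% higher and 16.3% lower, and the list median was -0.05. Srgn, the core protein of the mast cell granule proteoglycan, was at 0.41 ± 0.05. It was at 0.60 in activated and 0.54 in resting cells at 16 h and 0.47 in resting cells at 2 h. With no dyes swapped, a dye bias of its probe and an effect of the antibody cannot be told apart. Hs6st1, a heparan sulfate sulfotransferase, was at -0.56 ± 0.03 (adjusted p = 3.91e-07 in limma). Ndst2 was at -0.27, Ext2 at -0.22 and Sdc4 at 0.23. In each 16 h group 1 of the 11 rose and 4 fell. The shares of all genes were 16.9% higher and 13.2% lower in activated cells and 11.7% and 9.95% in resting cells.

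**Figure D5:**
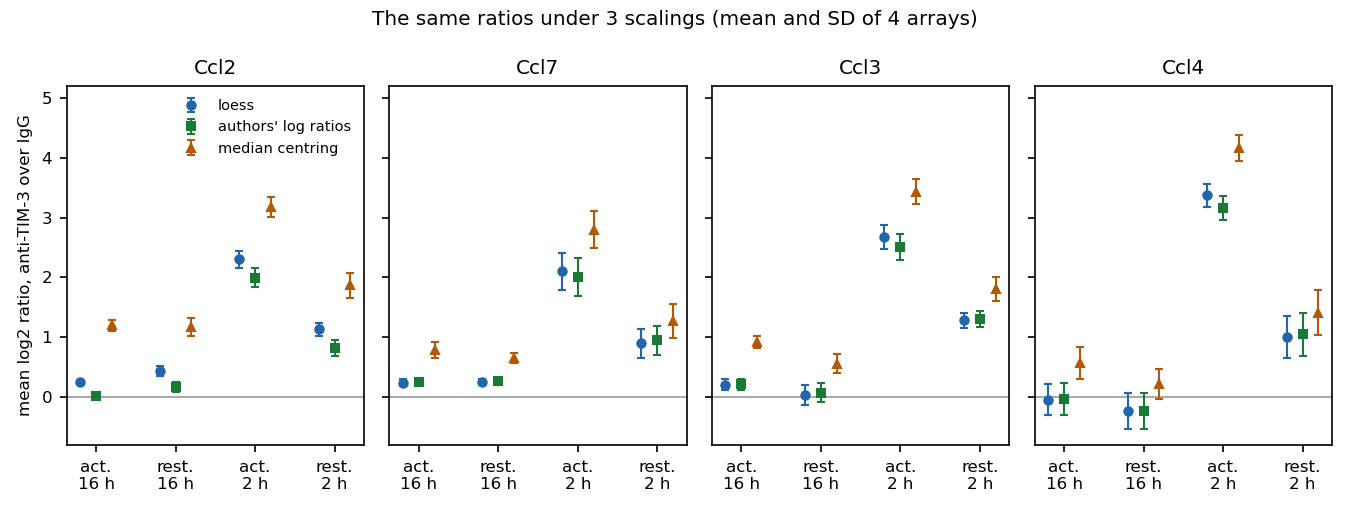
Mean log2 ratio of anti-TIM-3 over IgG of each gene in the 4 groups (SD of 4 arrays as bars) with loess (circles), as the authors deposited it (squares) and with median centring (triangles). The activated 2 h values stay between 2.00 and 4.17 under all 3 scalings. The 16 h values lie between -0.24 and 0.44 with loess or as deposited, and between 0.22 and 1.20 with median centring. With median centring the median of all genes is itself at 0.39 in activated and 0.30 in resting cells at 16 h.

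Across the 3 scalings the activated 2 h mean stayed above 0 on the log2 scale for all 4 genes, from 2.00 to 3.18 for Ccl2, from 2.01 to 2.80 for Ccl7, from 2.51 to 3.43 for Ccl3 and from 3.16 to 4.17 for Ccl4. With median centring the median of all genes itself was at 0.22 in activated cells at 2 h. Relative to that median the values were 2.95 for Ccl2, 2.58 for Ccl7, 3.21 for Ccl3 and 3.94 for Ccl4. At 16 h Ccl4 was at 0.57 in activated and 0.22 in resting cells with median centring, against -0.04 and -0.24 with loess. The median of all genes was itself at 0.39 and 0.30 there with median centring. Relative to the median of all genes, Ccl4 was at 0.18 in activated and -0.08 in resting cells with median centring. With loess it was at -0.05 and -0.24 relative to that median.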

How the data were processed

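Spot intensities were deposited by the authors as the scanner's output, read by Agilent Feature Extraction 9.1.3.1 per the file headers (version 9 per the submitters' processing notes). The deposited log10 ratio of processed Cy5 over processed Cy3 was turned into log2 for an alternative. The matrix of values for the series holds the same log ratios (largest difference 0), with a median of 0 in every column. With limma 3.58.1 in R 4.3.3, background was corrected by normexp (offset 50) and each array normalised by loess, with control and outlier spots at weight 0. The offset understates changes of dim probes. Single-channel log2 levels come from Aquantile normalisation between arrays. Of 45018 spots, 1639 controls were left out and repeated spots were averaged. The 25394 probes kept were those that in some group passed Agilent's well-above-background flag, in Cy5 or in Cy3, on 3 or more arrays, and each gene was represented by its brightest. Probes were named through RefSeq accessions (22951), symbols (6659) or synonyms (3109), and 8455 kept the file's name. A fit of all 16 arrays with 4 group means (lmFit, eBayes, two-sided, Benjamini-Hochberg over all genes) gave every test. It was tried on simulated log ratios with independent arrays, so that check does not cover levels or arrays that deviate together.

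The members, the 5 pathway lists and the 7 marker lists were chosen with earlier results of these data known. Named genes are the members, for each pathway list up to 5 genes with the largest mean ratio among those passing in activated cells at 2 h, neighbours within 200 kb, and the 10 genes most alike. Ccr2, as the receptor of Ccl2 and Ccl7, and the marker genes C1qa, S100a9, Mpo, Elane, Camp, Ltf and Ngp were named outside this rule, after their values were seen. Whether replicate numbers pair arrays was checked by correlating same-numbered arrays' deviations from their group means: r exceeded 0.1 in 24 of 24 pairs for IgG levels (0.11 to 0.68), 21 of 24 for anti-TIM-3 levels (all 4 between activated and resting cells at 16 h) and 12 of 24 for ratios. The pairing comes from the data and is not stated in the labels. Alternatives were the deposited log ratios, an offset of 16, median centring, Agilent's processed signals, quantile normalisation of a channel, other probe filters, the mean of a gene's probes, slide and replicate blocks, fits of only the groups compared, and leaving out each array.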

Additional observations from a re-analysis of the deposited data

Results flagged for a closer look

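In activated cells the log2 ratio of anti-TIM-3 over IgG differed between 16 h and 2 h for all 4 genes when the difference itself was tested: by -2.05 for Ccl2, -1.86 for Ccl7, -2.47 for Ccl3 and -3.42 for Ccl4 (limma, adjusted p at most 2.38e-08). Every activated 16 h array lay below every activated 2 h array for each gene.

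A single array lay far from the other 3 of its group in 2 of 48 sets of 4 values (Dixon's test at the 95% level), where chance gives about 5% of sets. The Ccl4 ratio of activated 16 h replicate 3 was -0.43, while the other 3 arrays lay between 0.06 and 0.12. The Ccl2 level of IgG-treated activated cells at 16 h was 15.48 on replicate 2, while the other 3 arrays lay between 15.65 and 15.67.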

How the results depend on the processing

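Of 1072 values of the members' 64 results under an alternative, 997 kept their direction and their side of the threshold, or, where no test applied, moved by less than the spread between replicates. The 4 ratios in activated cells at 2 h, their 4 differences between 16 h and 2 h, and the 8 level differences between 16 h and 2 h in activated cells did so under every alternative run. With the deposited log ratios, activated 16 h values became 0.013 for Ccl2, 0.249 for Ccl7 and 0.212 for Ccl3 (adjusted p 0.893, 0.0646 and 0.0521), Ccl2 became 0.172 in resting cells at 16 h and 0.823 at 2 h, and the Ccl3 difference between activated and resting cells at 2 h became 1.21. With median centring, resting 2 h values became 1.87, 1.27, 1.81 and 1.41 for Ccl2, Ccl7, Ccl3 and Ccl4 and their differences to activated cells 1.31, 1.53, 1.63 and 2.76. In the same setting the resting 16 h values of Ccl7, Ccl3 and Ccl4 became 0.649, 0.559 and 0.215, the activated 16 h value of Ccl4 0.571 (adjusted p = 0.000362), and the differences at 16 h of Ccl2, Ccl7 and Ccl3 0.025, 0.135 and 0.359. From here on, an antigen difference is the level in activated cells, given both IgE and antigen, minus that in resting cells, given neither. With an offset of 16 the activated 16 h ratio of Ccl7 was 0.242 (adjusted p = 0.0507) and the IgG antigen difference of Ccl2 at 16 h 0.207 (0.0585). With no filter they were 0.243 (0.0635) and 0.208 (0.0667). That Ccl2 difference was 0.202 with Agilent's processed signals, 0.168 with quantile normalisation and 0.219 with slide as a fixed block. With processed signals the 2 h antigen differences with anti-TIM-3 were 0.663, 2.09 and 4.26 for Ccl2, Ccl3 and Ccl4, that of Ccl7 with IgG 2.66, and the Ccl2 difference over time in resting IgG-treated cells -0.054. With quantile normalisation Ccl2's 2 h antigen difference with anti-TIM-3 was 0.689. Ccl7 in resting cells at 16 h passed with the mean of its probes (0.282), with slide as a fixed block (0.302) and with only the groups compared (0.254, adjusted p = 0.0165). With slide as a block the activated 16 h ratios of Ccl7 (0.270) and Ccl3 (0.187) did not pass, nor did the Ccl4 antigen difference at 16 h with anti-TIM-3 (0.833), which was 0.844 (adjusted p = 0.0573) with only the groups compared. The cause of these changes was not tested.

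With a replicate block Ccl7 (0.254, adjusted p = 0.0479) and Ccl4 (-0.236, 0.0375) passed in resting cells at 16 h, as did the Ccl4 antigen difference with IgG (0.650, 0.00789), and the block changed no other call of a member.

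Leaving out 1 array at a time, the activated 16 h ratios were 0.222 to 0.266 for Ccl7, 0.171 to 0.242 for Ccl3 and -0.096 to 0.087 for Ccl4, and Ccl3 in resting cells at 16 h was -0.012 to 0.099. The Ccl7 difference at 16 h was -0.032 to 0.012. The 16 h antigen differences were -0.0016 to 0.061 for Ccl2 and 0.599 to 1.02 for Ccl4 with anti-TIM-3, and 0.169 to 0.253 for Ccl2 and 0.440 to 0.916 for Ccl4 with IgG. Ccl2 over time in resting IgG-treated cells was -0.017 to 0.056. Without the set of 3 resting arrays, an alternative chosen after seeing the data, Ccl4 in resting cells at 16 h was 0.013, the 16 h differences 0.0048 for Ccl7 and -0.054 for Ccl4, the IgG antigen difference of Ccl2 0.263 (adjusted p = 0.0717), and its difference over time in resting IgG-treated cells -0.011. Counts of called genes moved most with median centring and without these 3 arrays: in resting cells at 16 h 1995 genes were higher and 1700 lower, against 363 and 160 without the 3 arrays, 943 and 786 with only the groups compared, and 11547 and 946 with median centring. In activated cells at 16 h 2884 were higher and 2263 lower, against 12070 and 1492 with median centring, and 1488 lower without replicate 1. In activated cells at 2 h the count of lower genes was 1816 without replicate 4. Without a single array, the resting 16 h counts were 797 higher and 653 lower (replicate 1) and 869 and 583 (replicate 3). Genes with a 16 h ratio that was unequal in activated and resting cells (804 higher, 661 lower) were 327 and 314 without the 3 arrays, 1877 and 336 with median centring, and 512 and 350 without activated replicate 1, 516 and 392 without resting replicate 1, and 499 and 427 without resting replicate 3. For the difference between 16 h and 2 h in activated cells, 1562 were higher, against 4227 with median centring and 1024 with slide as a fixed block. Levels compared for activated over resting cells at 16 h gave 1618 genes higher and 1672 lower with anti-TIM-3 (914 and 948 without the 3 arrays, and 1089 lower without resting replicate 3) and 906 and 1199 with IgG (497 and 704 without the 3 arrays).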
